A study of Mus musculus with 8 samples.

Results

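Cytochromes P450 of families 1, 2 and 3 were followed in mouse distal ileum by taking every gene symbol of the deposited table that has the form Cyp1, Cyp2 or Cyp3, a single subfamily letter and a number, with no pseudogene. The rule found 58 genes among 41128 symbols. Of these, 18 had a value of 1 or more in 3 or more of the 8 libraries, against 11911 symbols in the whole table. The ileum was sampled as whole tissue less than 6 cm from the ileocecal valve, with 1 library per mouse. The 4 Cftr null mice (KO, Cftr -/-, the Cftrtm1Cam allele, congenic FVB) were each paired with a wild-type littermate of the same sex (WT, Cftr N/N). Of the 4 littermate couples, 1 couple, labelled female, drank water with metronidazole (0.5 g/L) and ciprofloxacin (0.3 g/L), and 3 couples were untreated (couples 1 and 3 female, couple 2 male). All 8 mice were reared on a low fiber diet with an osmotic laxative, which was withdrawn more than 4 days before sampling. No age is given in the sources used here. Cftr encodes an epithelial anion channel, mutated in cystic fibrosis, and its loss in every cell of the body is what the KO mice model.

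P450 enzymes are heme proteins of the endoplasmic reticulum that insert an oxygen atom from molecular oxygen into fat-soluble molecules, with electrons passed on by the reductase Por. Families 1 to 3 oxidize drugs, dietary compounds, steroids and polyunsaturated fatty acids. Enterocytes of the small intestine carry them as a first barrier to swallowed compounds. Many are switched on by receptors that sense foreign compounds, namely PXR (gene Nr1i2) and CAR (Nr1i3) for families 2 and 3 and AHR (Ahr) for family 1.

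The levels below are the authors' values, for which no unit is named. They were taken as RPKM, that is, scaled to gene length and library size, and levels of different genes are set beside each other on that assumption. The values of couples 1 and 2 shared 1 distribution, which couple 3 and the antibiotic couple did not have. Summed values were 397082 in KO and 397021 in WT of couple 3. They were 346794 in KO and 361922 in WT under antibiotics, so the mice of these couples did not share a distribution exactly. Levels were compared most directly within a couple, with this limit. The libraries listed 20896 genes above 0 in couples 1 and 2, 11931 (KO) and 11912 (WT) in couple 3 and 13749 (KO) and 13672 (WT) in the antibiotic couple. A listed 0 does not show that a transcript is absent, and the depth of reads is unknown. Cftr was lower in every KO library than in its littermate, with values of 3.74, 2.65 and 3.17 in untreated KO ileum (couples 1, 2 and 3), 12.4, 9.94 and 10.1 in untreated WT ileum, 4.94 in KO under antibiotics and 13.8 in WT under antibiotics. All 12 enterocyte markers examined were detected in each library, at summed levels of 9214 to 15819 in untreated KO and 14863 to 21549 in untreated WT ileum, 24192 in KO under antibiotics and 21382 in WT under antibiotics. In whole tissue, fewer cells of a type and less RNA per cell cannot be told apart.

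The promoters of 5 of the most strongly differing genes are shown because several of these genes moved together. Each line gives the 250 bases upstream of a transcript start in the RefSeq promoter table (GRCm38.p6), 5′ to 3′ on the gene's own strand. For Cyp2d26 and Cyp3a25 that start lies inside the RefSeq gene span given below, so 207 and 26 bases of their windows are within the gene. Capitals mark matches, on either strand, to the nuclear receptor hexamers AGGTCA and AGTTCA, the HNF1 hexamer GTTAAT, the AHR core GCGTG, and the HNF4 letters CAAAGT and CAAAGTCCA, of which the shorter lies within the longer.
Cyp2d26 (chr15:82794246-82794495, minus strand): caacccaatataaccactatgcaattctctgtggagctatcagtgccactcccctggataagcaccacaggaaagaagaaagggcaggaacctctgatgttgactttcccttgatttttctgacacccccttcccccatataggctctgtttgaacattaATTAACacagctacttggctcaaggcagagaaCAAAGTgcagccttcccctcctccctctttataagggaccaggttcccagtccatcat
Cyp2c65 (chr19:39060756-39061005, plus strand): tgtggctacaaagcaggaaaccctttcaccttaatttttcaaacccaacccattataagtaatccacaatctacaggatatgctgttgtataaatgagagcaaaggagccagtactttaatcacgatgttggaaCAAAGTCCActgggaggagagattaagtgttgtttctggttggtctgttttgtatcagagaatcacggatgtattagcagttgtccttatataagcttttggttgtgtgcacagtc
Cyp2c66 (chr19:39113648-39113897, plus strand): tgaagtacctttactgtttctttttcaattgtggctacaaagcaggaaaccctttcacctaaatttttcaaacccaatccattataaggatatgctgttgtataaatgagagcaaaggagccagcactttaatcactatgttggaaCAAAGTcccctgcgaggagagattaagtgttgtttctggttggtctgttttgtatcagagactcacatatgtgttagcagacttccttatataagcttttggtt
Cyp3a11 (chr5:145879855-145880104, minus strand): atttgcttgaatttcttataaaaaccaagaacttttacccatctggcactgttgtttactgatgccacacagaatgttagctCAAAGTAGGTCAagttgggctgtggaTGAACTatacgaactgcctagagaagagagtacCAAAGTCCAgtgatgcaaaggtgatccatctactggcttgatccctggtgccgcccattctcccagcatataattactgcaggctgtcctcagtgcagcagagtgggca
Cyp3a25 (chr5:146009619-146009868, minus strand): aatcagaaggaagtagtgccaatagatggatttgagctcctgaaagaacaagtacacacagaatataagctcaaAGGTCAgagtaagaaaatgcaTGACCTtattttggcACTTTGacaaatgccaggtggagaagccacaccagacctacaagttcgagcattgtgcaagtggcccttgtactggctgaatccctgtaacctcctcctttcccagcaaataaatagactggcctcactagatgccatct
In Cyp3a11, CAAAGT and AGGTCA stood next to each other, and a CAAAGTCCA began 109 bases upstream of the start. The Cyp2c65 and Cyp2c66 promoters are near copies, so their CAAAGT matches (116 and 104 bases upstream) are not separate observations. Among the 15 genes at 1 or more in 3 or more libraries that have an upstream window in the table, 9 held CAAAGT, as did 25 of all 50 members with a window and 12.6% of 32851 windows of all genes. CAAAGTCCA was found in 4 of the 15 and in 8 of the 50, against 0.384% of all windows. AGGTCA was found in 3 of the 15 (Cyp3a11, Cyp3a25 and Cyp3a44), in 15 of the 50 and in 14.0% of all windows. In the same order, AGTTCA was found in 1, 6 and 11.8%, GTTAAT in 2, 6 and 6.43%, and GCGTG in 3, 8 and 28.2%. A member was counted if any of its windows matched, while the shares over all genes are of single windows, so the 2 are not alike. Members of a gene cluster arose by duplication and share promoter sequence, and a match is not evidence that a factor binds there.

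The 58 genes lie mostly in clusters. The 15 Cyp2c genes are on chromosome 19, the 8 Cyp2d genes on chromosome 15, the 8 Cyp2j genes on chromosome 4, the 7 Cyp3a genes on chromosome 5, and the 5 Cyp2b and 4 Cyp2a genes on chromosome 7 (RefSeq positions, GRCm38.p6). Of the genes at 1 or more in 3 or more libraries, 6 were Cyp2c, 4 were Cyp3a, 2 were Cyp2d and 2 were Cyp2j, with 1 each from Cyp2b, Cyp2e, Cyp2s and Cyp2u. No member of family 1 and none of Cyp2a, Cyp2f, Cyp2g, Cyp2r, Cyp2t or Cyp2w reached that level. At the edge of this rule, Cyp2c55 reached 1 in 3 libraries and Cyp2c67 in 4, while Cyp2a4, Cyp2c39 and Cyp2f2 reached 1 in 1 library, with 1.94, 1.18 and 1.29 as their highest values.

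In untreated mice the summed level of the 58 genes was lower in KO ileum in every couple. The sums were 165, 129 and 285 in KO ileum of couples 1, 2 and 3 and 779.9, 432 and 859 in WT ileum, so the KO sum was 21.1%, 29.8% and 33.2% of that of the littermate. Under antibiotics the order of the sums was the other way round, at 1219 in KO and 853 in WT ileum. Cyp3a11 alone was at 403 in KO and 121 in WT ileum there. Under antibiotics, 11 of the 18 genes at 1 or more in 3 or more libraries were lower in KO than in WT ileum. The other 7 were higher, a split not counted over all genes. The summed enterocyte markers had the same order, at 62.0% to 73.4% of the littermate in untreated KO ileum and 113% in KO ileum under antibiotics; their part in the P450 levels was not tested. Cyp3a and Cyp2d genes together made up the largest share in each WT library. The leading gene also differed: it was Cyp3a13 in KO of couples 1 and 2 and Cyp2b10 in KO of couple 3, against Cyp3a11 in WT of couple 1 and Cyp2d26 in WT of couples 2 and 3. In KO under antibiotics it was Cyp3a11, at 33.0% of the sum, and in WT under antibiotics Cyp2d26, at 26.4%.

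**Figure D1:**
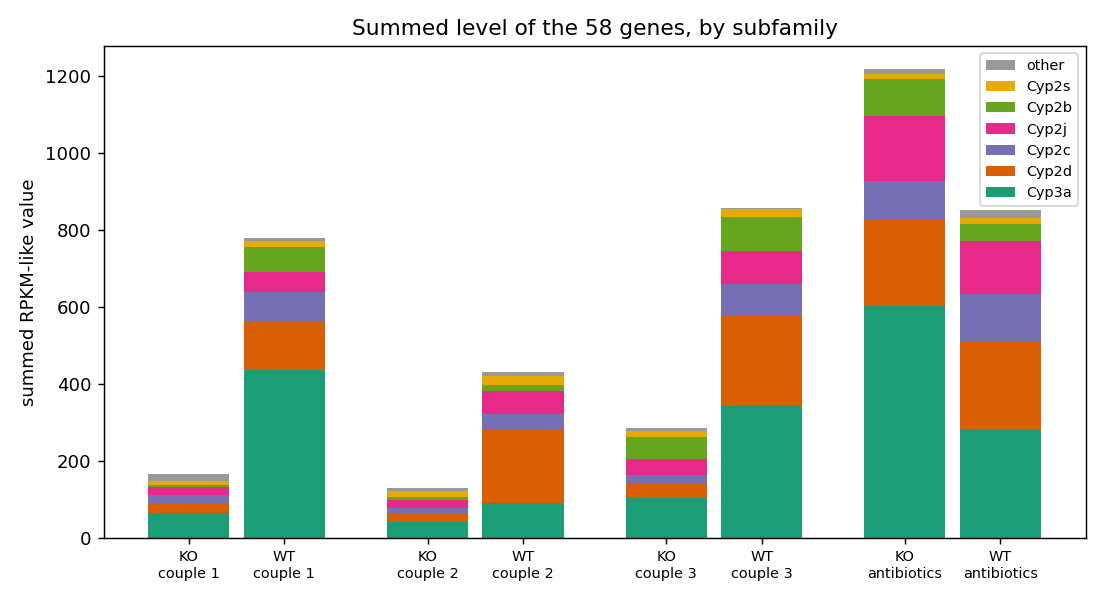
Summed RPKM-like values (vertical axis) of the 58 genes in each library, with each bar split into the subfamilies Cyp3a, Cyp2d, Cyp2c, Cyp2j, Cyp2b, Cyp2s and all others. The untreated KO bars reach 129 to 285 and the untreated WT bars 432 to 859, while the KO bar of the antibiotic couple, at 1219, is the tallest.

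Each gene was tested by limma on log2(value + 1) across all 11911 genes with a value of 1 or more in 3 or more libraries, with p-values adjusted after Benjamini and Hochberg and called under 0.05. The scale understates the change of genes with low values. Without regard to the couples, 3 of the 18 tested members fell in untreated KO ileum (Cyp2d26, Cyp2d22 and Cyp2c65) and 0 rose, where 0.965% of all tested genes fell and 1.07% rose (2.04% in either direction). With the couple as a block, 11 of the 18 fell and 0 rose, where 9.52% of all tested genes fell and 8.07% rose. These 11 were the same 3 genes with Cyp2c55, Cyp2c66, Cyp2c68, Cyp2j6, Cyp2j9, Cyp2s1, Cyp3a11 and Cyp3a25. The blocked calls of Cyp2c65, Cyp2d26 and Cyp3a11 held without any 1 couple. Those of Cyp2c55 (0.0902 without couple 1, 0.0662 without couple 3), Cyp2c66 (0.0748 without couple 1, 0.0977 without couple 3), Cyp2c68 (0.0566 without couple 1), Cyp2j6 (0.0575 without couple 1) and Cyp2d22 (0.0643 without couple 2) did not. The fitted difference was below 0 for 15 of the 18 members, with a median of -1.11, against 6170 of all 11911 genes and a median of -0.02. In 10 members all 3 KO values lay below all 3 WT values, as they did in 12.1% of all tested genes, while 0 members had all KO values above all WT values, against 10.3% of all tested genes. A gene that is high in WT alone can pass the level filter through those libraries, so these counts describe the 18 genes and not all 58. Among the 11, Cyp2c55 and Cyp2j9 passed only with the help of untreated WT libraries. Cyp2j9 was under 1 in all 3 untreated KO libraries. Cyp2c55 reached 1 only in KO of couple 1 and in WT of couples 1 and 3.

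**Figure D2:**
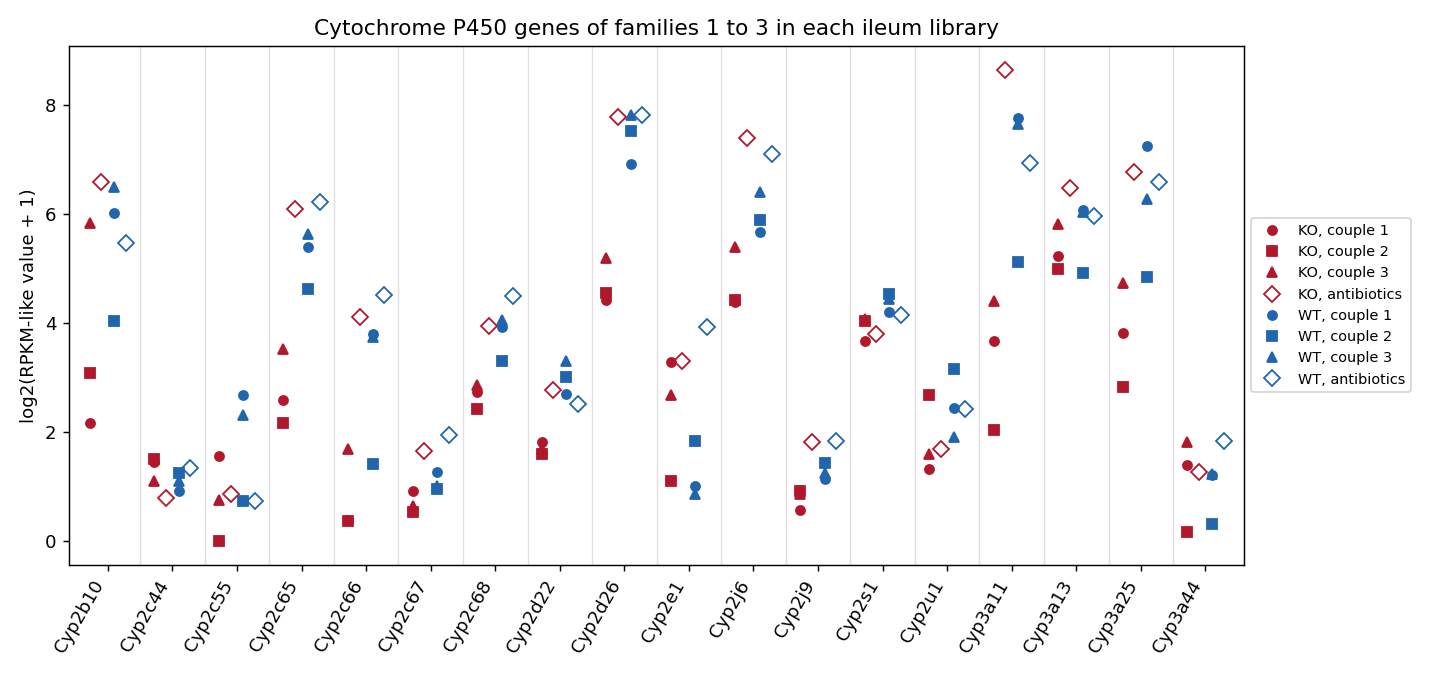
Values of the 18 genes in every library, as log2(RPKM-like value + 1) on the vertical axis, with KO libraries left of WT libraries for each gene, filled symbols for the 3 untreated couples and open diamonds for the antibiotic couple. For Cyp2d26, Cyp2c65 and Cyp3a11 the filled KO symbols all lie below the filled WT symbols, and the open KO diamonds lie above every filled KO symbol.

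Within Cyp2d, whose human member CYP2D6 oxidizes many drugs, both expressed genes fell. Cyp2d26 (chromosome 15, 82790107 to 82794452) had values of 20.4, 22.6 and 35.8 in KO ileum of couples 1, 2 and 3 and 120.1, 185 and 226 in WT ileum. The groups did not overlap, and the KO level was 12.2% to 17.0% of that of the littermate. Its means were 26.2 ± 8.32 in KO and 177 ± 53.5 in WT (SD, n = 3 each), with a log2 difference of -2.70 (SE 0.31, limma adjusted p = 0.00811, 0.00507 with the couple block), lower in 3 of 3 couples. It was called whichever single library was left out (adjusted p = 0.0146 to 0.0365).

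Cyp2d22 (chromosome 15, 82370527 to 82380260) was a far less abundant gene, at 2.53, 2.02 and 2.22 in KO ileum and 5.49, 7.02 and 8.90 in WT ileum. The groups did not overlap, and KO values were close to each other in all 3 couples. The log2 difference was -1.30 (SE 0.19, limma adjusted p = 0.0204, 0.0180 with the block), lower in 3 of 3 couples. The call was lost without KO of couple 1 (0.0583), KO of couple 2 (0.0650), KO of couple 3 (0.0675), WT of couple 2 (0.0547) or WT of couple 3 (0.0815), and held without WT of couple 1 (0.0277). The other 6 Cyp2d genes stayed under 1 in all libraries.

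The Cyp2c subfamily holds enzymes that turn arachidonic acid into epoxides and hydroxylated products, and it had the most expressed members. Cyp2c65 (chromosome 19, 39061006 to 39093948) had values of 5.05, 3.49 and 10.5 in KO ileum of couples 1, 2 and 3 and 41.1, 23.6 and 48.7 in WT ileum. The KO level was 12.3% to 21.6% of that of the littermate, without overlap of the groups. The log2 difference was -2.46 (SE 0.39, limma adjusted p = 0.0260, 0.00532 with the block), lower in 3 of 3 couples. The call held without KO of couple 3 (0.0193) or WT of couple 2 (0.0278) and was lost without KO of couple 1 (0.0855), KO of couple 2 (0.0689), WT of couple 1 (0.0881) or WT of couple 3 (0.101). With the block it was also called when any 1 couple was left out (0.00688 to 0.0314).

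Its neighbour Cyp2c66 (chromosome 19, 39113898 to 39186756) had values of 0.305, 0.288 and 2.22 in KO ileum and 12.9, 1.65 and 12.4 in WT ileum. WT of couple 2 lay below KO of couple 3, so the groups overlapped, although KO was 2.36% to 18.0% of the littermate in each couple. The adjusted p was 0.173 without the block and 0.0420 with it (log2 difference -2.17, SE 0.67 without the block). Of 50-base windows of its transcripts, 19.5% also occur in Cyp2c65, so part of the reads of either gene could have been counted for the other.

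Cyp2c68 (chromosome 19, 39688836 to 39741101) had 5.67, 4.36 and 6.29 in KO ileum and 14.3, 8.86 and 15.7 in WT ileum. The groups did not overlap, and the adjusted p was 0.0745 without the block and 0.0109 with it (log2 difference -1.09). Cyp2c55, a gene known to respond to PXR and CAR in mouse liver, was at 1.93, 0 and 0.688 in KO ileum and 5.39, 0.654 and 3.99 in WT ileum, so its WT value in couple 2 was within the KO range. It passed with the block alone (0.0266, against 0.387 without it). Cyp2c67 was low throughout, at 0.454 to 0.900 in KO and 0.947 to 1.42 in WT ileum, and was not called by either fit (0.394 and 0.0689). Windows shared with other P450 genes made up 43.3% of Cyp2c68 and 52.8% of Cyp2c67, and for both the closest gene was Cyp2c40, so their values are uncertain as single genes.

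Cyp2c44, named Cyp2c23 in the current annotation and an arachidonic acid epoxygenase, did not follow the others of its subfamily. It had 1.73, 1.82 and 1.14 in KO ileum and 0.899, 1.37 and 1.15 in WT ileum, with overlapping groups (log2 difference 0.26, SE 0.19, adjusted p = 0.561, 0.233 with the block). It lies apart from the other expressed Cyp2c genes on chromosome 19, at 44005022 to 44029256. The remaining 9 Cyp2c genes did not reach 1 in 3 libraries.

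Cyp3a11 is the main drug-oxidizing CYP3A enzyme of the mouse and a known PXR target. It had 11.7, 3.12 and 20.3 in KO ileum of couples 1, 2 and 3 and 216, 33.8 and 199.7 in WT ileum. The highest KO value lay below the lowest WT value, and KO was 5.40%, 9.22% and 10.2% of the littermate. WT of couple 2, the male couple, was far below the other WT mice, and this spread enters the test without the block. The log2 difference of -3.47 (SE 0.83) was not called without the block (adjusted p = 0.0962) but was called with it (0.00579, SE 0.22), and the blocked call held without any 1 couple (0.00988 to 0.0275). Without WT of couple 2 alone, the unblocked fit gave 0.0316.

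Cyp3a25 (chromosome 5, 145977192 to 146009644) followed the same order of mice, with 13.2, 6.08 and 25.7 in KO ileum and 151, 27.8 and 77.0 in WT ileum. The groups did not overlap (log2 difference -2.33, adjusted p = 0.143, 0.0266 with the block). The blocked call was lost without couple 2 (0.0748). Of its windows 25.2% also occur in Cyp3a59, which stayed under 1 in all libraries.

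Cyp3a13, which is expressed mainly in the intestine, was by contrast at 36.8, 31.0 and 55.3 in KO ileum and 66.1, 29.3 and 64.7 in WT ileum. The groups overlapped, with KO above WT in couple 2 (log2 difference -0.32, SE 0.36, adjusted p = 0.727, 0.262 with the block). It lies apart from the other Cyp3a genes on chromosome 5, at 137892933 to 137925610, and shares no 50-base window with another P450 gene. Cyp3a44 was low, at 0.124 to 2.505 in KO and 0.244 to 1.35 in WT ileum (adjusted p = 0.880, 0.411 with the block).

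Cyp2b10, the classical CAR target of mouse liver, had 3.49, 7.45 and 56.5 in KO ileum of couples 1, 2 and 3 and 64.1, 15.5 and 89.0 in WT ileum. KO was below WT in 3 of 3 couples, but the ratio ran from 5.45% in couple 1 to 63.5% in couple 3, and KO of couple 3 lay above WT of couple 2. The difference was not called (log2 difference -1.82, SE 0.99, adjusted p = 0.425, 0.120 with the block). The other 4 Cyp2b genes stayed under 1.

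In the Cyp2j subfamily, whose human member CYP2J2 is an arachidonic acid epoxygenase, Cyp2j6 had 20.0, 20.5 and 41.1 in KO ileum and 49.97, 58.5 and 83.5 in WT ileum. The groups did not overlap, and the adjusted p was 0.115 without the block and 0.0104 with it (log2 difference -1.25). Its neighbour Cyp2j9 was far lower, at 0.479, 0.896 and 0.820 in KO and 1.20, 1.71 and 1.36 in WT ileum (adjusted p = 0.256, 0.0460 with the block). Cyp2s1, an epithelial P450 that AHR can induce, had 11.8, 15.5 and 15.8 in KO ileum and 17.4, 22.3 and 20.6 in WT ileum. Of the 11 genes called with the block it had the smallest log2 difference (log2 difference -0.46, SE 0.18, adjusted p = 0.268, 0.0273 with the block). The blocked calls of Cyp2s1 (0.0841 to 0.101) and Cyp2j9 (0.131 to 0.141) were lost whichever couple was left out. Cyp2u1, a fatty acid hydroxylase, had 1.49, 5.39 and 2.03 in KO ileum and 4.46, 7.93 and 2.74 in WT ileum, with overlap, and was not called (0.525, 0.0740 with the block).

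**Figure D3:**
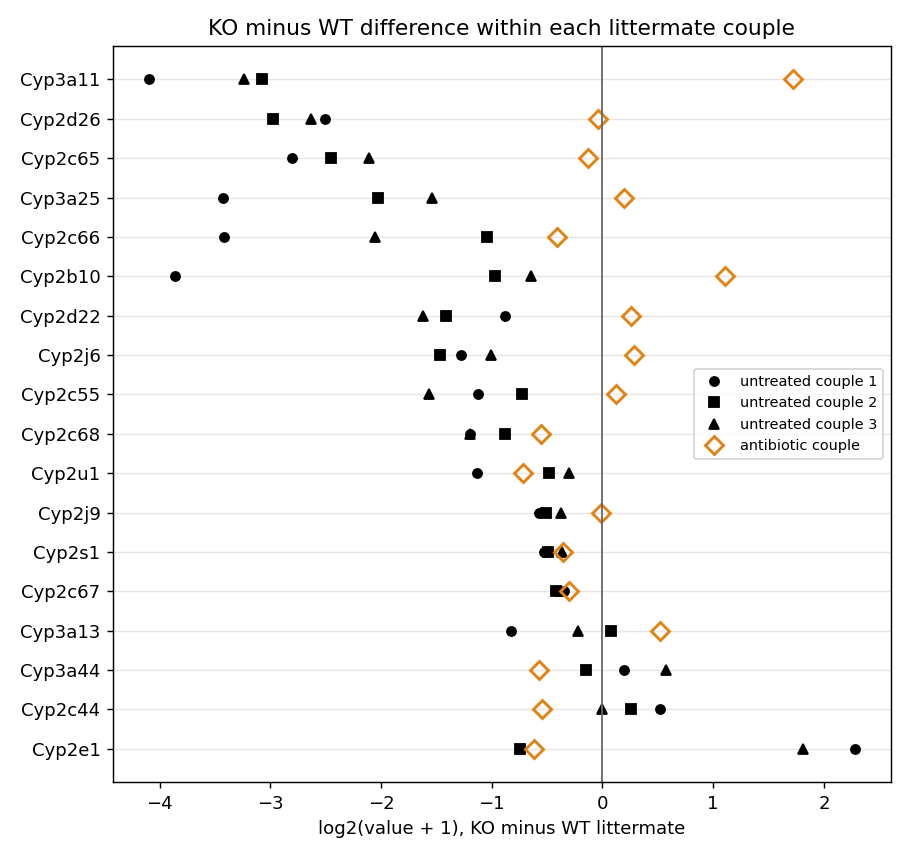
Difference in log2(value + 1) between the KO mouse and its WT littermate (horizontal axis) for the 18 genes, with black symbols for the 3 untreated couples and open orange diamonds for the antibiotic couple. In 14 genes all 3 black symbols lie below 0, a pattern not counted over all genes. In 14 genes the diamond lies to the right of all 3 black symbols, as in 33% of 11520 genes.

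Cyp2e1, which oxidizes ethanol and is chiefly a liver enzyme, differed in direction between the couples. It had 8.77, 1.14 and 5.37 in KO ileum of couples 1, 2 and 3 and 1.01, 2.58 and 0.818 in WT ileum, and 8.90 in KO and 14.2 in WT ileum under antibiotics. It was not called (log2 difference 1.12, SE 0.54, adjusted p = 0.376, 0.247 with the block), and with the block and without couple 2 it was called higher (0.0227). Of 10 liver marker genes, 7 reached 1 in KO of couple 1, 3 in KO of couple 3 and 4 in each library of the antibiotic couple, and 0 in the other 4 libraries. The summed level of the 10 was 160.2, 0.998 and 14.9 in KO ileum, 1.84, 1.25 and 0.382 in WT ileum, 397 in KO under antibiotics and 443 in WT under antibiotics. Albumin (Alb) was at 110.4, 0.0419 and 10.6 in KO ileum, 0.150, 0.163 and 0.0891 in WT ileum, 357 in KO under antibiotics and 397 in WT under antibiotics. Ahsg, Fgb and Fga were listed at 0 in both libraries of the antibiotic couple. The part of liver RNA in the values of Cyp2e1 or of any other member was not tested.

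Of the 40 members under the level filter, more reached 0.5 in KO of couple 1 than in any other library. There 15 of them were at 0.5 or more, against 2 and 0 in KO of couples 2 and 3 and 3, 3 and 0 in WT of couples 1, 2 and 3. In 22 of the 40 the highest value of all 8 libraries was in KO of couple 1, Cyp2a4 (1.94), Cyp2a5 (0.999), Cyp2b9 (0.947) and Cyp2d10 (0.928) among them. The share of all genes under the filter with either pattern was not counted, so these counts are not particular to the members. Libraries of couples 1 and 2 listed 20896 genes above 0, more than those of the other couples. The highest value of a low gene can fall there more readily. The 40 summed to 17.0 in that library and to 5.07 in its littermate, where the liver markers were at 160.2 and 1.84. Other markers differed between libraries too. All 7 colon markers were above 0 in KO of couple 1, against 3 in its littermate. Their sum was lower there (120.7) than in KO of couples 2 (198) and 3 (184), but it came mostly from Car4 and Slc26a3. Both were well above 1 in all 8 libraries, with Car4 at 91.1, 179 and 164 in KO of couples 1, 2 and 3. Car1 was at 12.4 in KO of couple 1, 0.0243 in its littermate and 0 in all others. Aqp8, Hoxd13 and Hoxb13 were above 0 in KO of couple 1 alone. Hoxd10 was at 0.0452 there and 0.0462 in KO of couple 2. S100a8 was at 7.86 in KO of couple 1 and 0.0800 in its littermate. Summed immune markers were higher in KO of couple 3 (85.3 against 78.6). Pancreas markers summed to 5.22 in KO of couple 1 and 36.9 in its littermate. The link of the 40 to any of these was not tested. All 40 were listed at 0 in couple 3. Of family 1, Cyp1a1, the classical AHR target, did not exceed 0.378, Cyp1a2 did not exceed 0.299, and Cyp1b1 was at 0 to 0.925 in untreated KO and 0 to 0.775 in untreated WT ileum.

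**Figure D4:**
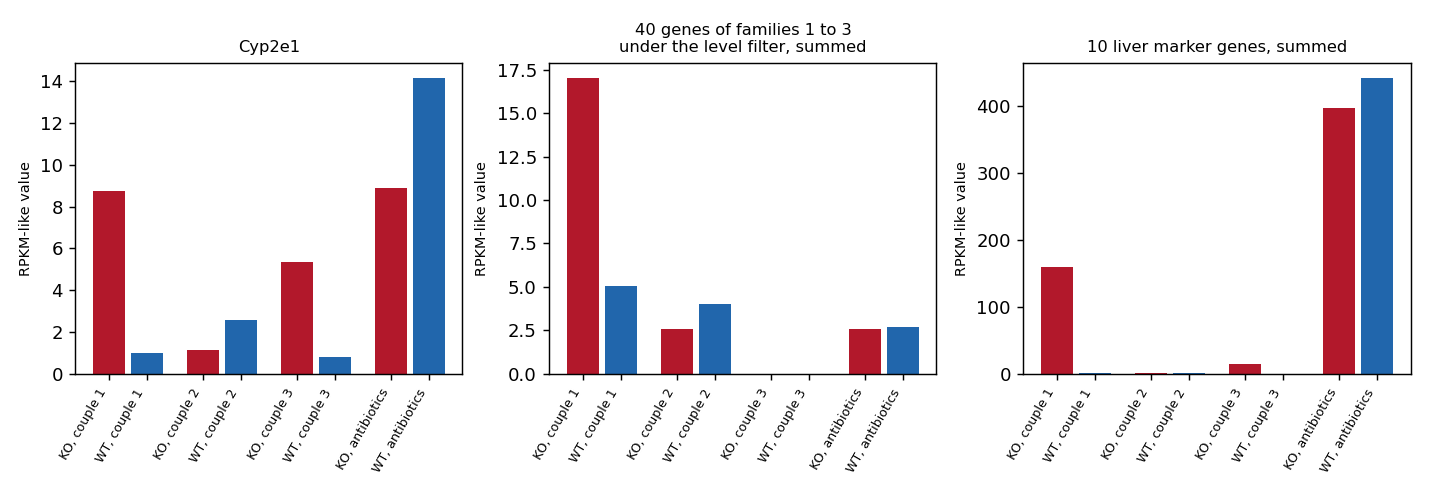
RPKM-like values (vertical axes, each panel with its own scale) of Cyp2e1, of the 40 genes of families 1 to 3 under the level filter summed, and of 10 liver marker genes summed, with a bar for each library and KO (red) left of its WT littermate (blue). KO of couple 1 is the highest untreated library in all 3 panels, and both libraries of the antibiotic couple are high for Cyp2e1 and for the liver markers.

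Under antibiotics the KO mouse had a level above all 3 untreated KO mice in 13 of the 18 genes, as in 19.9% of 11520 genes, and below all 3 in 1 (Cyp2c44). Cyp3a11 was at 403 in KO and 121 in WT ileum, so that KO was at 332% of its littermate. Cyp2d26 was at 219 in KO and 225 in WT ileum, and Cyp2c65 at 67.3 in KO and 73.7 in WT ileum, within 10% of each other in both genes. Cyp2b10 was at 94.999 in KO and 43.6 in WT ileum, Cyp3a25 at 109 and 94.9, Cyp2j6 at 167 and 136, and Cyp2d22 at 5.87 and 4.75, each pair with KO first. Cyp2c66 (16.2 in KO, 21.9 in WT), Cyp2c68 (14.4 in KO, 21.6 in WT) and Cyp2s1 (12.9 in KO, 16.7 in WT) were lower in KO. In 14 of the 18 genes the log2 difference of the antibiotic couple lay above that of all 3 untreated couples, in 2 within their range and in 2 below it. Of 11520 genes, 33% lay above and 34.3% below all 3. This couple has no replicate. Of the 10 liver markers, 4 reached 1 in each of its libraries, with Alb at 357 in KO and 397 in WT ileum. The part of liver RNA in the P450 levels of this couple was not tested.

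The difference between genotype differences, tested by limma over all 8 libraries with 1 mean per group, called 0 of 11520 genes, and so 0 of the 18 members (percent called 0). At an unadjusted p under 0.05 there were 483 genes, 5 of them members (Cyp2c65, Cyp2d22, Cyp2d26, Cyp2j6 and Cyp3a11). With the couple block 0 genes were called again and 1850 had an unadjusted p under 0.05, 9 of them members. The estimate for Cyp3a11 was 5.19 on the log2 scale (SE 1.64, adjusted p = 0.923, 0.0862 with the block) and for Cyp2d26 2.66 (SE 0.62, adjusted p = 0.573, 0.0862 with the block). The antibiotic groups have 1 library each, assumed to vary like the untreated ones.

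Levels under antibiotics were set against the untreated mice over both genotypes with genotype and treatment as terms. Treatment, litter and separate normalization cannot be told apart there. Of 11520 genes 0.13% were called higher and 0.026% lower (0.156% in all), and 0 of the 18 members were called (9 at an unadjusted p under 0.05, of 2240 genes at that level). The lowest adjusted p among members was that of Cyp2c67 (0.0931, log2 difference 0.91). In 9 of the 18 genes the KO value under antibiotics was above all 6 untreated values, Cyp3a11, Cyp2j6 and Cyp2b10 among them, as in 7.82% of all 11520 genes. The WT value under antibiotics was above all 3 untreated WT values in 9 members and in 10.3% of all genes. The median difference of all genes was -0.14, and 0.04 after each library was centred on its median.

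The untreated mice also differed among themselves. The KO mouse of couple 2 had the lowest KO value in 11 of the 18 genes, against 30.0% of all tested genes, and its WT littermate the lowest WT value in 10, against 33.5%. In couple 3, 11 of the 18 had their highest KO value, against 27.8% of all tested genes, and 7 their highest WT value, against 26.2%. Couple 2 is the only male couple, so sex and litter cannot be told apart.

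Genes that serve the P450 enzymes were read from lists. Of 8 tested electron transfer genes, 0 were called without the block and 2 fell with it (Por and Cyb5r3). Por, the reductase, had 34.3, 55.0 and 55.7 in KO ileum and 59.5, 98.9 and 91.9 in WT ileum, 147 in KO under antibiotics and 127 in WT under antibiotics (log2 difference untreated -0.78, SE 0.28, adjusted p = 0.233, 0.0120 with the block). Of 21 tested sensing receptors and transcription factors, 2 fell without the block and 7 with it, and 0 rose. The 2 were Nr0b2, the repressor SHP (0.0750, 0.143 and 0 in KO, 5.43, 2.65 and 8.52 in WT ileum), and Ppara, the fatty acid receptor (4.89, 7.04 and 3.48 in KO, 15.0, 24.5 and 19.9 in WT ileum). Nr0b2 passed the level filter through WT libraries alone, and neither gene was called without the filter (adjusted p = 0.158 and 0.160). PXR itself (Nr1i2) had 21.9, 32.6 and 30.4 in KO ileum and 37.0, 34.5 and 42.6 in WT ileum and was not called (adjusted p = 0.358, 0.0964 with the block). CAR (Nr1i3) had 5.01, 6.05 and 3.65 in KO and 6.96, 5.08 and 5.50 in WT ileum (0.648, 0.353 with the block), and 16.6 in KO and 12.8 in WT ileum under antibiotics. Ahr had 3.58, 2.85 and 2.16 in KO and 3.78, 3.72 and 3.32 in WT ileum (0.518, 0.144 with the block).

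Of 12 genes of heme synthesis and breakdown, 0 were called without the block. Alas1, the first enzyme of heme synthesis, had 26.7, 29.3 and 25.2 in KO ileum and 29.9, 30.2 and 28.4 in WT ileum (0.757, 0.269 with the block), and Hmox1, which breaks heme down, had 1.67, 1.96 and 1.54 in KO and 0.931, 1.29 and 1.23 in WT ileum (0.363, 0.0898 with the block). Among 15 tested P450 genes of other families, 2 fell and 1 rose without the block, and 6 fell and 1 rose with it. Those called without the block were the steroid hydroxylase Cyp17a1 (0.0951, 0.262 and 0.234 in KO, 2.90, 1.69 and 2.16 in WT ileum), the fatty acid hydroxylase Cyp4a10 (0.425, 0.231 and 0.154 in KO, 3.79, 14.4 and 11.9 in WT ileum), and Cyp4a29, which rose (4.597, 7.55 and 8.995 in KO, 0.0203, 0.0393 and 0.292 in WT ileum). Cyp17a1 passed the level filter through WT libraries alone and Cyp4a29 through untreated KO libraries alone. Without the filter none of the 3 was called (adjusted p = 0.125 for Cyp17a1, 0.164 for Cyp4a10 and 0.0751 for Cyp4a29). The 12 tested enterocyte markers had 0 calls without the block and 5 lower with it, at a median log2 difference of -0.29, beside the median of -1.11 in the 18 P450 genes; their part in it was not tested.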

How the data were processed

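Polyadenylated RNA of 8 ileum samples was sequenced on Illumina HiSeq 2000 and Ion Proton instruments, with no statement of which library ran on which,, and the authors mapped the reads to GRCm38 (release 76) in CLC Genomics Workbench 7.5 with its default parameters, per the series' design text. How reads were counted and normalized is not stated there. The deposited table names no unit, and its values were taken as RPKM made by the authors. The sorted values of couples 1 and 2 were identical, which is the pattern of quantile normalization. No counting interval was computed, since depth is unknown.

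Here the log2(value + 1) of genes with a value of 1 or more in 3 or more of 8 libraries was tested with limma 3.58.1 in R 4.3.3, letting the prior variance follow a trend with expression, and p-values were adjusted after Benjamini and Hochberg over all genes tested. The script was tested on simulated data. The members and gene lists were chosen with earlier results of these data known, and members at 1 or more in 3 or more libraries are named 1 by 1. The labels call the couples littermates, and the deviations of both mice of a couple from their group means correlated across genes at 0.62, 0.63 and 0.53. Mice of different couples correlated at -0.49 to -0.08, values that centring on group means lowers. Couple 3 had its own distribution of values, so litter and processing cannot be told apart in these correlations. The couple block is therefore printed beside the fit without it. Nothing beyond separate mice marks the replicates. In the WT antibiotic column 376 genes shared a non-zero value with another gene, 45 were at 0 with 1 or more in the littermate, and 2 lay over 3 log2 units below both the KO littermate and every untreated library. The 423, with 0 members among them, were left out of fits that use that couple. Alternatives were a pseudocount of 0.1, no filter, median centring, the block, and leaving out each library or couple. RefSeq (GRCm38.p6) matched 57 members by symbol and 1 by an older symbol, and 50 had a promoter sequence. Windows of 50 bases were compared between GENCODE transcripts of P450 genes. The result for 1 gene of the heme list is not reported here.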

Additional observations from a re-analysis of the deposited data

Results flagged for a closer look

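For 6 genes the KO minus WT difference of the antibiotic couple was above 0 while that of all 3 untreated couples was below 0, a pattern found in 11.4% of all 11520 genes tested. On the log2(value + 1) scale it was 1.72 for Cyp3a11, 1.11 for Cyp2b10, 0.29 for Cyp2j6, 0.26 for Cyp2d22, 0.20 for Cyp3a25 and 0.12 for Cyp2c55. The untreated differences of couples 1, 2 and 3 were -4.10, -3.08 and -3.23 for Cyp3a11, -3.86, -0.97 and -0.65 for Cyp2b10, -1.28, -1.47 and -1.004 for Cyp2j6, -0.88, -1.41 and -1.62 for Cyp2d22, -3.43, -2.02 and -1.54 for Cyp3a25 and -1.12, -0.73 and -1.56 for Cyp2c55. The test of the difference itself, by limma, did not call any of the 6, with adjusted p-values of 0.596 to 0.999 without the block and 0.0862 to 0.365 with it. Cyp2c55 was at 0.817 in KO and 0.670 in WT ileum under antibiotics, near the bottom of the scale.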

How the results depend on the processing

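The 3 calls among members in untreated mice remained with a pseudocount of 0.1 and with median centring. Without the level filter 0 members were called (7 genes higher and 4 lower of 23285 tested, Cyp2d26 at an adjusted p of 0.114). More genes were tested there, and the unadjusted limma p of Cyp2d26 was also higher (0.000337, against 3.34e-05 with the filter). With the couple block 11 members were lower, as were 1134 of all genes, with 961 higher. Leaving out 1 library gave 1 to 5 members lower and 0 higher, with 38 to 71 of all genes higher and 25 to 68 lower. With the block and 1 couple left out, 5 to 7 members were lower and 0 to 1 higher (Cyp2e1, without couple 2), with 104 to 265 of all genes higher (215 without couple 2) and 94 to 290 lower (231 without couple 2). Cyp3a44, not called in any setting, ran from -0.13 to 0.69 with a library left out, with its sign reversed without KO of couple 3 (-0.13) or WT of couple 2 (-0.10). Among antibiotic effects, all genes gave 0 higher and 0 lower calls without the filter, 8 lower with the smaller pseudocount, 1 lower after centring and 5 lower with faulty genes kept, and 5 to 18 higher and 1 to 6 lower with a library left out; no member was called in these settings. After centring, Cyp2c44 (0.028) and Cyp2u1 (0.058) reversed, and Cyp2u1 ran from -0.27 to 0.065 with a library left out, above 0 without KO or WT of couple 2. For the difference between genotype differences, keeping faulty genes gave 44 calls higher and 30 lower among all genes and 0 among members; with 1 library left out, estimates that reversed ran from -0.018 to 0.20 for Cyp2s1, from -0.015 to 0.19 for Cyp2c67 and from -0.41 to 0.32 for Cyp2u1. The cause of these changes was not tested. With 3 mice a group and unknown depth, small differences of low genes could not be resolved.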
